A study of Sedum plumbizincicola and Sedum alfredii with 13 samples.

Results

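Sedum alfredii is a succulent of the stonecrop family and serves in this study as the non-hyperaccumulator, a plant that does not build up cadmium in its shoots to the levels of its relative. The organ comparison rests on its 4 Illumina RNA-seq libraries, chosen by the organ in their labels, of 13 samples in the series. They are 1 root and 1 shoot library from plants without cadmium (0 µM CdCl2) and 1 root and 1 shoot library from plants given 10 µM CdCl2 for 3 days, here called untreated and Cd-treated. Roots are thus compared with shoots on 2 libraries a side, with dose as a term in the model, so the pair of an organ holds different treatments and no replicate of the same treatment. Another 8 Illumina libraries, from roots and shoots of the hyperaccumulator Sedum plumbizincicola at the same doses (replicates A and B of each), serve as independent libraries in which the same transcripts can be read. The labels do not say how many plants stand behind a library.

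Roots anchor the plant, take up water and ions and load them into the xylem, while shoots carry the leaves, where photosynthesis takes place. A plant therefore runs a shared set of housekeeping genes in both organs and, beside it, genes that only 1 organ uses. In leaves a small number of very abundant messages for the photosynthetic machinery often takes a large part of the messenger RNA, as general background from land plants. The files give 66584 assembled transcript clusters, here called transcripts, under component numbers (c, then g for the cluster within it). They pair no transcript with a gene name, so what each encodes is not stated, at most 2 transcripts in each direction are named per comparison, and the organ labels could not be checked against named markers.

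The Sedum alfredii libraries held 3434922 to 4670429 estimated reads, and 3 counts, the limit that 0 reads allow, stand for 0.642 to 0.873 CPM (counts scaled to library size). More transcripts were detected in roots than in shoots. The root libraries had a read for 41633 (untreated) and 42711 (Cd-treated) transcripts, and the shoot libraries for 30131 and 29793. Across the 66584 transcripts the rank correlation of TPM (a level per transcript length that adds up to the same total in each library) was 0.847 between the root libraries and 0.889 between the shoot libraries, and it lay between 0.689 and 0.705 for a root with a shoot library. These correlations run across transcripts and only describe that libraries of 1 organ were more alike than libraries of different organs.

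Large numbers of transcripts differed between the organs in both directions. Of 21699 tested, 6432 (29.6%) were root-higher and 5129 (23.6%) shoot-higher by edgeR's quasi-likelihood test at an adjusted p under 0.05. DESeq2 on the same counts called 4744 root-higher and 4655 shoot-higher, so that the excess of root-higher calls was small there. In 6417 of the 6432 both root libraries stood above both shoot libraries, and in 5084 of the 5129 both shoot libraries stood above both root libraries; among all tested transcripts 44.1% and 35.8% were separated in these ways. The other 10138 transcripts did not pass, and 7225 of them had a fitted difference under 1.5-fold. The model left 1 residual degree of freedom, so the spread came mostly from all transcripts jointly (biological coefficient of variation 0.201). The counts moved when single libraries were left out, in fits that also had no dose term. Without the Cd-treated root library 7652 transcripts were called, 3304 of them higher in shoots, and without the untreated root library 3379 were higher in shoots.

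**Figure D1:**
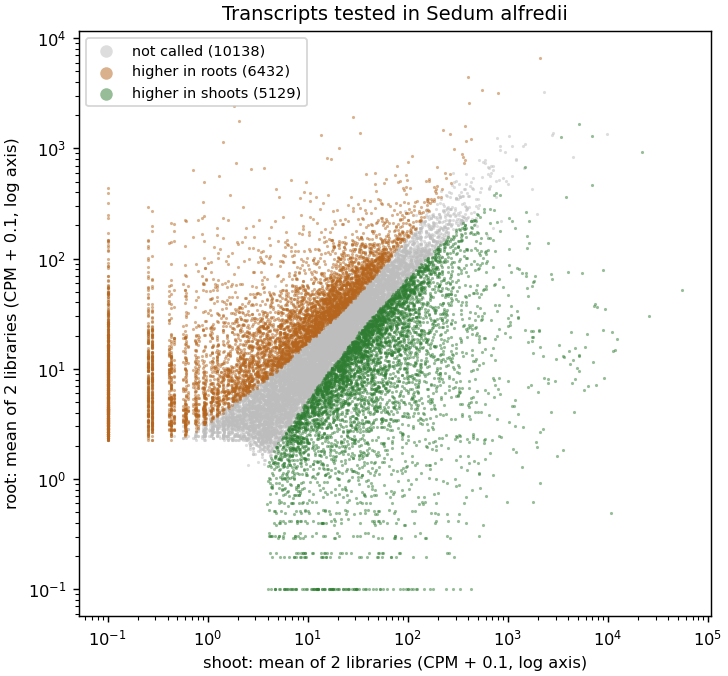
Each point is 1 of the 21699 tested Sedum alfredii transcripts, with the mean CPM + 0.1 of the 2 shoot libraries on the x axis and of the 2 root libraries on the y axis, both on log scales. The 6432 transcripts called higher in roots lie above the diagonal band of 10138 uncalled ones and the 5129 higher in shoots below it; the columns at the left edge and the rows at the bottom edge are transcripts with 0 or few reads in 1 organ.

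Most called differences exceeded 2-fold in both directions. Transcripts at 0 reads were set to 3 counts over the group. The median log2 fold change (root over shoot) was then 2.20 among root-higher transcripts (interquartile range 1.29 to 3.47). Among shoot-higher ones it was -1.83 (-3.29 to -1.14). The fitted median over all tested transcripts was 0.13, and the distance of the called ones from it follows from their choice. Under 2-fold were 13.7% of the root-higher and 17.6% of the shoot-higher calls. Differences of 4- to 16-fold were seen for 2324 of the root-higher and 1408 of the shoot-higher transcripts. The most extreme class ran the other way: 52 root-higher and 140 shoot-higher transcripts differed by 8 or more on the log2 scale. However, 1060 root-higher transcripts had 0 shoot reads and entered at a lower bound, against 98 shoot-higher ones with 0 root reads. Root-higher folds were thus capped more often, and the order in this class is no measure of the organs.

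Root-higher and shoot-higher transcripts sat at different expression levels. The tested transcripts were divided by average CPM into 4 classes of nearly equal size. In the lowest class 37.8% were root-higher and 11.1% shoot-higher. In the highest class the order was turned, with 23.6% higher in roots and 37.0% higher in shoots. In the classes between them the shares were 28.5% against 20.4% and 28.7% against 26.1%. Root-higher transcripts were thus spread over many weakly expressed messages, while shoot-higher ones were more frequent among strongly expressed messages. The lowest class also has the fewest reads.

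**Figure D2:**
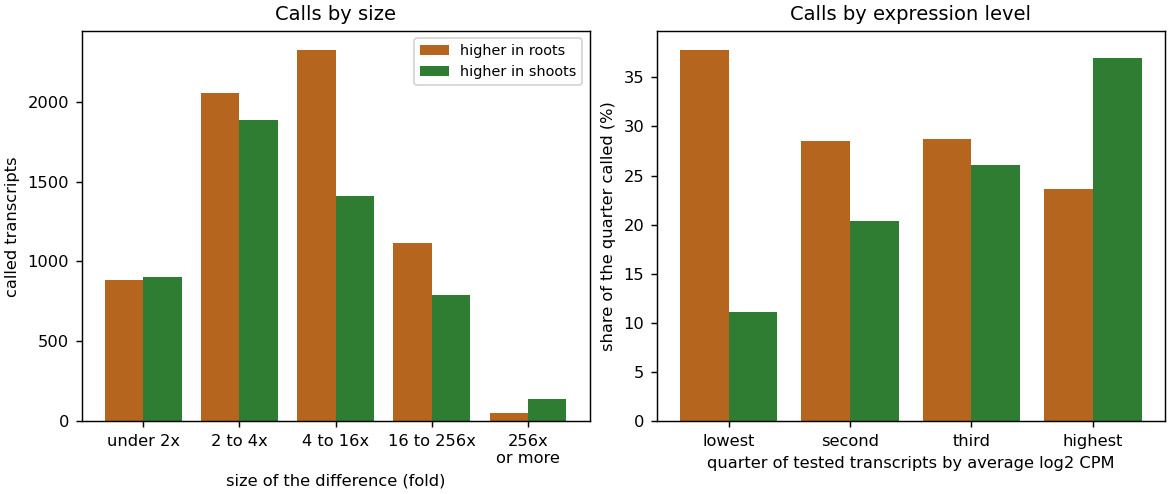
The left panel counts called transcripts (y axis) by the size of the root-to-shoot difference (x axis, fold, with 0 reads set to 3 counts over the group), and the right panel gives the share of each of 4 expression classes that was called (y axis, %), from the lowest to the highest average level (x axis). Brown bars are transcripts higher in roots and green bars those higher in shoots; the green bars exceed the brown ones in the widest fold class (140 against 52) and in the highest expression class (37.0% against 23.6%).

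The shoot transcriptome was concentrated in far fewer transcripts. The transcripts that together made up 50% of all TPM numbered 250 in the untreated and 346 in the Cd-treated shoot library, against 1852 and 1904 in the root libraries. The 10 most abundant transcripts held 16.8% and 15.4% of TPM in the shoots and 5.84% and 5.75% in the roots, and the first 100 held 41.3% and 37.4% against 17.0% and 17.1%. The 2 libraries of an organ thus lay close to each other and the organs apart. Lists of 100 transcripts were then taken by mean TPM in each organ, a choice that favours calls toward that organ. Of the shoot list (926 to 36129 TPM), 86 were called higher in shoots, 1 higher in roots and 12 did not pass, while 1 was not tested. Of the root list (671 to 8918 TPM), 46 were higher in roots, 6 higher in shoots and 48 did not pass. Only 17 transcripts belonged to both lists. In Sedum plumbizincicola, 78 of the shoot list were called higher in shoots and 60 of the root list higher in roots, of 88 and 86 tested there, where 31.8% and 32.1% of all 17468 tested transcripts were called in these directions.

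**Figure D3:**
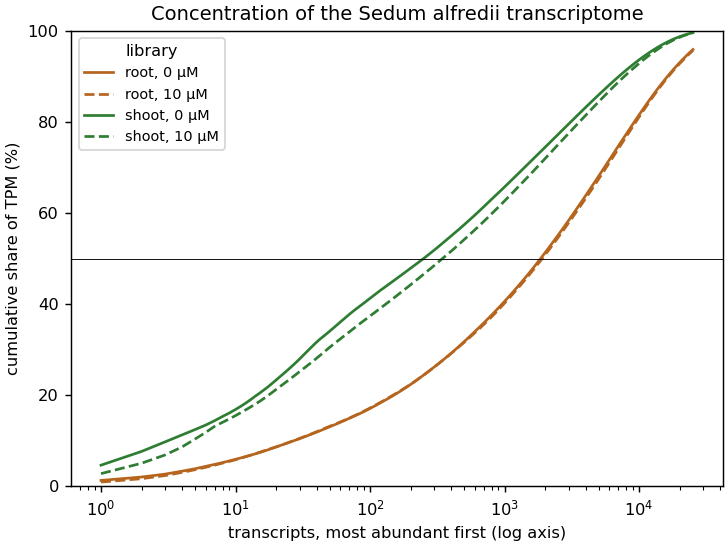
Cumulative share of TPM (y axis, %) against the number of transcripts taken from the most abundant down (x axis, log scale) in the 4 Sedum alfredii libraries, brown for roots and green for shoots, solid for untreated and dashed for Cd-treated. The horizontal line marks 50%, which the shoot curves cross at 250 and 346 transcripts and the root curves at 1852 and 1904.

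The number of calls in each direction depended on the scale. The test used TMM factors, which align the bulk of transcripts between libraries, and these were 1.34 and 1.37 for the untreated and Cd-treated root and 0.699 and 0.783 for the corresponding shoot libraries. On the deposited TPM, which add up to the same total in each library, the median difference over all tested transcripts shifted to 0.95 on the log2 scale, toward roots. On that scale, as log2(TPM + 1), limma called 11933 higher in roots (82.3% of its calls) and 2571 higher in shoots, against 55.6% root-higher among the calls of edgeR. With the library medians subtracted, an alternative chosen after seeing the data, it called 5490 and 5006. The directions given here are relative to the bulk of transcripts, not per total messenger RNA. In a bulk sample, moreover, fewer cells of a type and less RNA per cell cannot be told apart.

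The called transcripts accounted for unequal parts of the reads. In the untreated shoot library 70.5% of reads fell on the 5129 shoot-higher transcripts (95% exact binomial interval 70.4% to 70.5%) and in the Cd-treated one 62.7% did (62.7% to 62.8%), against 14.1% (14.0% to 14.1%) and 14.9% (14.9% to 14.9%) in the root libraries. The 6432 root-higher transcripts took 40.7% (40.6% to 40.7%) and 39.0% (39.0% to 39.1%) of the root libraries, and 5.77% (5.75% to 5.79%) and 6.53% (6.50% to 6.55%) of the shoot libraries. Since the lists were chosen in these same libraries, the order of the shares follows from the choice. Transcripts that were tested and not called held 43.2% (43.1% to 43.2%) and 43.9% (43.8% to 43.9%) of root reads but 23.1% (23.0% to 23.1%) and 29.9% (29.8% to 29.9%) of shoot reads. The intervals cover counting error only.

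By a rule on unscaled reads, transcripts restricted to 1 organ were far more frequent in roots. A transcript was counted as restricted when both libraries of 1 organ held at least 10 reads and both libraries of the other held none. On the TMM scale, the same level gives more reads in the root libraries (factors 1.34 and 1.37) than in the shoot libraries (0.699 and 0.783). The part of this in the counts was not tested. There were 1090 root-restricted transcripts (4.36% of the 24978 with at least 10 reads in any of the 4 libraries) and 103 shoot-restricted ones (0.412%). The order was the same with a minimum of 50 reads (184 against 39), with at most 3 reads over the other organ (1920 against 271) and with any library left out. Without the untreated root library the root count was 1711, and without the Cd-treated root or the Cd-treated shoot library the shoot count was 178 and 158. The same count over 2 root and 2 shoot libraries of Sedum plumbizincicola gave 298 root-restricted and 271 shoot-restricted transcripts for its A libraries and 378 and 191 for its B libraries. Those libraries are shallower (1260160 to 2403858 reads). The A libraries held 2615490 root and 4087247 shoot reads, and the B libraries 4032786 and 3844461. The counts are therefore set side by side without a test.

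In reads, the restricted transcripts of roots were mostly weak, and those of shoots fewer but stronger. A root-restricted transcript had a median of 54 reads over its 2 libraries (20 to 3969), which places it at least 11.1-fold higher in roots for the median member (bounds of 4.10-fold to 814-fold). The median shoot-restricted transcript had 101 reads (22 to 2391) and was at least 54.7-fold higher in shoots (bounds of 11.9-fold to 1295-fold). The bounds also carry the TMM scale, by which 20 root reads gave 4.10-fold and 22 shoot reads 11.9-fold. The bounds of the organs are therefore not directly comparable. Per length, 27 of 1090 root-restricted transcripts reached a mean of 100 TPM in roots, and 14 of 103 shoot-restricted ones reached it in shoots. Reads of root-restricted transcripts came to 1.8% (95% exact binomial interval 1.79% to 1.82%) in the untreated and 1.49% (1.47% to 1.5%) in the Cd-treated root library. The 103 shoot-restricted ones took 0.31% (0.305% to 0.315%) and 0.321% (0.316% to 0.327%) of the shoot libraries. The filter on low counts before the test was passed by 1060 of the 1090 and 98 of the 103.

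The most abundant root-restricted transcripts were c37144_g1 and c36282_g1. c37144_g1, with 3 isoforms, stood at 811 CPM (3648 reads) in the untreated and 60.7 CPM (321 reads) in the Cd-treated root, with 0 reads in both shoots. Its root mean of 436 ± 531 CPM (SD, n = 2) was at least 814-fold above the shoots (adjusted p = 0.000116), and the wide SD spans both doses, not replicates. The call was lost when the untreated or the Cd-treated shoot library was left out. These fits had no dose term, so the gap between the 2 root libraries counted as spread. The fitted log2 fold change was 13.84 and 13.87 in them. A fit of all 4 libraries without a dose term kept the call on c37144_g1 (adjusted p = 0.0103). c36282_g1, with 4 isoforms, stood at 454 CPM (2043 reads) untreated and 331 CPM (1752 reads) with Cd, again with 0 shoot reads. Its mean of 393 ± 87.0 CPM (SD, n = 2) was at least 779-fold above the shoots (adjusted p = 0.000102). Both were also absent from the 4 Sedum plumbizincicola shoot libraries (0 reads) and present in its roots, at 273 ± 145 and 58.8 ± 16.2 CPM (SD, n = 4 each).

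On the shoot side the leading restricted transcripts were c30933_g1 and c45790_g3. c30933_g1 had 0 reads in both roots, 181 reads (55.8 CPM) in the untreated shoot and 2210 reads (795 CPM) in the Cd-treated shoot. Its shoot mean of 425 ± 523 CPM (SD, n = 2) was at least 1295-fold above the roots (adjusted p = 0.000105), and the bulk of its reads came from the Cd-treated plants. This call was lost without the untreated or the Cd-treated root library, in fits that had no dose term. The gap between the shoot libraries counted as spread there, and the fitted log2 fold change was -13.65 and -13.54. With all 4 libraries and no dose term the call on c30933_g1 was kept (adjusted p = 0.00927). c45790_g3, a short transcript of 252 bases with a single isoform, had 779 reads (240.3 CPM) and 1176 reads (423 CPM) in the shoots and none in the roots. At 332 ± 129 CPM (SD, n = 2) it was at least 1059-fold above the roots (adjusted p = 9.49e-05). In Sedum plumbizincicola the first had 1 read over all 8 libraries and the second had none.

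**Figure D4:**
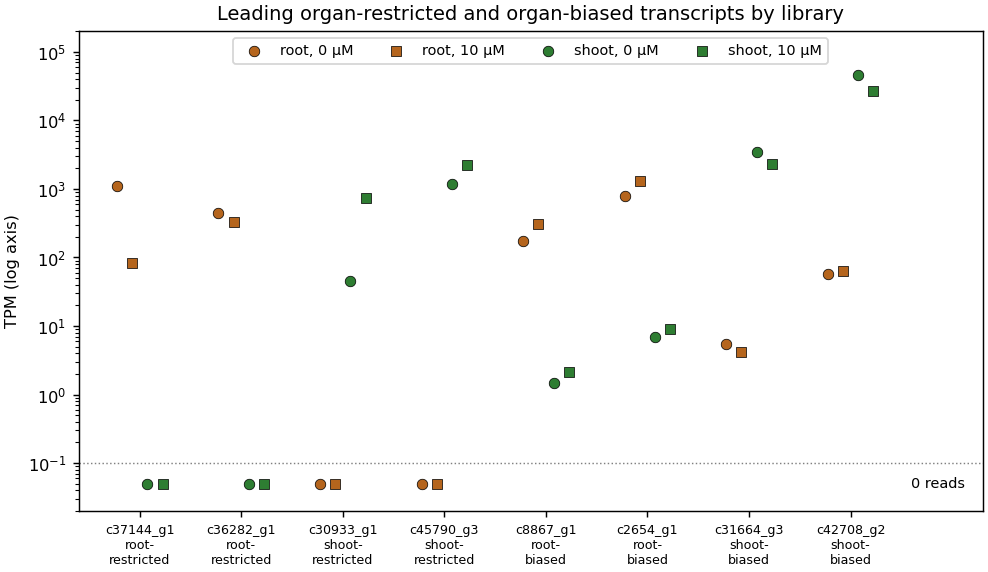
TPM on a log axis (y axis) of the 2 leading root-restricted, shoot-restricted, root-biased and shoot-biased Sedum alfredii transcripts (x axis) in each library, brown for roots and green for shoots, circles for untreated and squares for Cd-treated. Points under the dotted line had 0 reads; c37144_g1 and c30933_g1 are, of the 4 restricted transcripts shown, those whose 2 own-organ libraries lie farthest apart.

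Beyond the organ rule, the root-restricted transcripts differed from the tested transcripts at large in isoform number, length and reads in the other species. Only 23.8% of them (259 of 1090) had more than 1 assembled isoform, against 77.0% of all tested and 62.1% (64 of 103) of the shoot-restricted transcripts. Their median length was 754 bases (interquartile range 551 to 1090), against 1113 bases for all tested transcripts and 656 bases for the shoot-restricted ones. Reads in the other species were also rarer. No read in any of the 8 Sedum plumbizincicola libraries was found for 517 of the 1090 (47.4%), compared with 26 of the 103 shoot-restricted (25.2%) and 2226 of 21699 tested transcripts (10.3%). Root-restricted transcripts also had few reads (median 54, as above, against 134 over the root libraries for all tested transcripts). The part of depth in these differences was not tested. Which species a transcript of the shared set was assembled from is not known here.

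The same features were weaker among all root-higher transcripts, of which 14.8% lacked reads in the other species and 66.0% had more than 1 isoform. Of the 6432, 952 had no read in Sedum plumbizincicola, and these had a median length of 732 bases, more than 1 isoform in 15.9% and a median log2 difference of 3.19. The other 5480 had a median length of 1325 bases, more than 1 isoform in 74.8% and a median log2 difference of 1.93. Among shoot-higher transcripts 432 had no such read, with a median length of 538 bases and more than 1 isoform in 46.5%. The 842 uncalled transcripts without such a read had more than 1 isoform in 37.4%, against 84.4% of the 9296 uncalled ones with reads.

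Restricted transcripts with at least 10 reads in the hyperaccumulator had them in the same organ or in both. Of the 268 root-restricted transcripts with at least 10 reads over the 8 Sedum plumbizincicola libraries, 121 had such reads in roots and none in shoots, 147 had reads in both organs and 0 were confined to shoots. Of the 68 shoot-restricted ones with as many reads, 38 had reads in shoots alone, 30 in both organs and 0 in roots alone. The same counts over all transcripts are not given here, so these lack a background. By the test in Sedum plumbizincicola, 146 of 157 tested root-restricted transcripts were root-higher and 2 shoot-higher. Of 46 tested shoot-restricted ones 45 were shoot-higher. Among the 15059 transcripts tested in both species these calls made up 32.9% and 30.7%.

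Many transcripts were strongly biased without being restricted. Of 21699 tested, those with at least 10 reads in every Sedum alfredii library give a fold that no zero decides, and a separate fit to 15372 such transcripts called 3726 higher in roots and 3594 higher in shoots. c8867_g1, with 1 isoform of 1781 bases, stood at 261 and 465 CPM in the untreated and Cd-treated roots and at 4.32 and 5.76 CPM in the shoots. Its log2 fold change was 6.13 (SE 0.32, adjusted p = 9.49e-05), with 363 ± 144 CPM (SD, n = 2) in roots and 5.04 ± 1.02 CPM (SD, n = 2) in shoots. c2654_g1, with 1 isoform of 2183 bases, stood at 1469 and 2404 CPM in roots and 25.6 and 30.6 CPM in shoots (log2 fold change 6.07, SE 0.45, adjusted p = 0.00016). For both transcripts the root libraries lie far above the shoot libraries at either dose. Neither had a read in any of the 8 Sedum plumbizincicola libraries.

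In the other direction the bias reached further. c31664_g3, with 3 isoforms, stood at 5727 and 3457 CPM in the untreated and Cd-treated shoots and at 4.45 and 3.40 CPM in the roots. Its log2 fold change was -10.15 (SE 0.63, adjusted p = 0.000104), with 4592 ± 1605 CPM (SD, n = 2) in shoots and 3.93 ± 0.738 CPM (SD, n = 2) in roots. c42708_g2, with 12 isoforms, was the most abundant transcript of the untreated shoot library, at 45428 TPM, with 26829 TPM in the Cd-treated shoot and 57.1 and 63.0 TPM in the roots. On the CPM scale it held 70954 and 39247 in shoots and 49.4 and 53.3 in roots (log2 fold change -10, SE 0.96, adjusted p = 0.000392). In Sedum plumbizincicola both were also higher in shoots, with log2 fold changes of -7.02 for c31664_g3 (adjusted p = 2.07e-10) and -10.03 for c42708_g2 (adjusted p = 1.26e-12). The bias of c31664_g3 was larger in Sedum alfredii by the direct test of the difference (log2 difference -3.43, SE 0.90, adjusted p = 0.0103), while that of c42708_g2 did not pass it (-0.02, SE 0.46, adjusted p = 1).

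Transcripts of 1 assembly component, which are often close relatives or pieces of a gene, were called for the same organ or for different ones. Of 3232 components with 2 or more tested transcripts, 1195 held 2 or more calls. All of these calls pointed to roots in 534 components and to shoots in 439, while 222 components held at least 1 transcript of each kind. Over all tested transcripts 29.6% were root-higher and 23.6% shoot-higher. How often unrelated transcripts share or split their organ was not counted, so the numbers of components lack a background. Component c44308 held 1 of the widest splits. Its c44308_g6, a single isoform of 371 bases, had 85 and 315 reads in roots (18.9 and 59.6 CPM) against none in shoots, which places it at least 82.1-fold higher (adjusted p = 0.000238). In contrast c44308_g1, with 8 isoforms, stood at 2742 and 1419 CPM in shoots and 15.6 and 15.5 CPM in roots (log2 fold change -6.98, SE 0.52, adjusted p = 0.000161). The call on c44308_g6 was lost in DESeq2 (adjusted p = 0.066). It was also lost without the untreated or the Cd-treated shoot library, in fits that had no dose term (fitted log2 fold change 10.36 and 10.4). A fit of all 4 libraries without a dose term kept it (adjusted p = 0.00505).

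In component c42801 the pair was c42801_g1 and c42801_g2. c42801_g1 had 272 and 249 reads in roots (60.5 and 47.1 CPM) and 1 and 0 reads in shoots (adjusted p = 0.0001). c42801_g2 had 5 and 8 reads in roots and 30 and 658 in shoots (9.25 and 237 CPM, log2 fold change -6.20, SE 0.91, adjusted p = 0.00459). Most of the shoot reads of the latter came from the Cd-treated library, and its log2 fold change was -2.87 without that library and -7.47 without the untreated shoot library. Its call was lost without the untreated or the Cd-treated root library, where its log2 fold change was -6.32 and -6.73. The fits that left out a library had no dose term. With both shoot libraries kept, the gap between them thus counted as spread. With all 4 libraries and no dose term the call on c42801_g2 was kept (adjusted p = 0.0201). RSEM divides reads that fit several transcripts, so levels within a component are uncertain.

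The organ bias of Sedum alfredii was then read in the independent Sedum plumbizincicola libraries. Among 15059 transcripts tested in both species, 3985 were higher in Sedum alfredii roots, and 2507 of these (62.9%) were higher in Sedum plumbizincicola roots as well, which is 50.6% of the 4957 root calls of that species. Root calls made up 32.9% of all 15059 there. Of 3839 shoot-higher transcripts 2789 (72.6%) were also higher in Sedum plumbizincicola shoots, or 60.4% of its 4616 shoot calls, against 30.7% of all. The opposite organ was called for 299 of the 3985 (7.50%) and 196 of the 3839 (5.11%). Log2 fold changes of the species had a Pearson correlation of 0.816 and a Spearman correlation of 0.649 across these transcripts, given as a description since transcripts are not replicates and share 1 transcript set. A fit of the 8 Sedum plumbizincicola libraries by organ and dose gave these calls (5599 root-higher, 32.1%, and 5554 shoot-higher, 31.8%, of 17468).

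**Figure D5:**
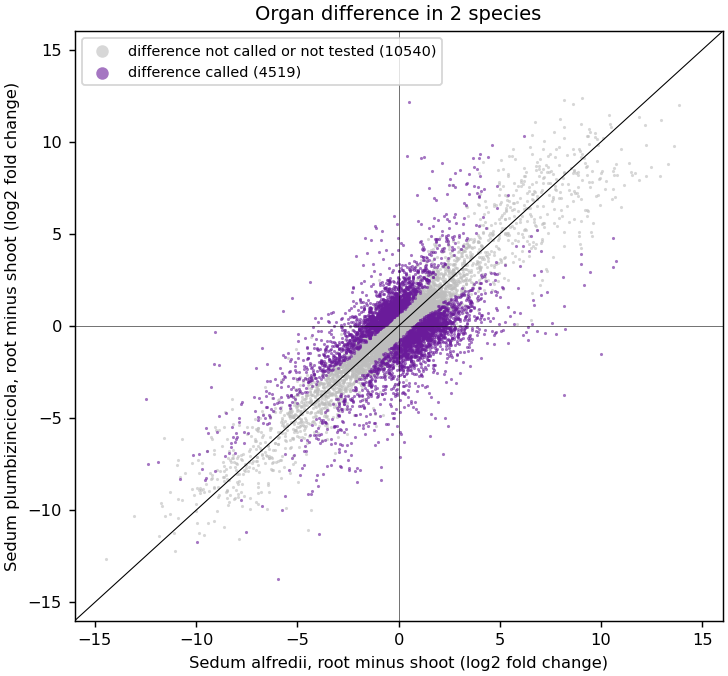
Log2 fold change of root over shoot in Sedum alfredii (x axis) and Sedum plumbizincicola (y axis) for the 15059 transcripts tested in both, with purple points where the species difference in organ bias was called (4519) and grey points where it was not called or not tested (10540). Points run along the diagonal line of equal bias, the purple ones away from it. Fitted values of transcripts with 0 reads in an organ depend on the prior count of the fit.

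Whether the organ bias itself differed between the species was tested directly in a fit of all 12 libraries. Of 24074 transcripts, 2564 (10.7%) had a root-to-shoot ratio that was higher in Sedum alfredii than in Sedum plumbizincicola and 2579 (10.7%) one that was lower, 21.4% in all. This fit took in 684 of the 1090 root-restricted and 87 of the 103 shoot-restricted transcripts, but for the 4 restricted ones named above, which have 0 reads in whole groups, it gave no usable estimate. The total of 5143 dropped to 2896 when the untreated root library of Sedum alfredii was left out and to 3053 when its Cd-treated root library was. The calls with the lower ratio numbered 1123 and 1528 in these fits, and 1569 and 1498 without the untreated and the Cd-treated Sedum alfredii shoot library. Those with the higher ratio numbered 1525 in the fit that left out the Cd-treated root of Sedum alfredii. On log2(TPM + 1) limma called 6741 with the higher and 1900 with the lower ratio, at a shift of 0.56 in the overall median.

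Among transcripts with at least 10 reads in each species and organ, c33063_g1 and c36603_g3 had the largest differences toward Sedum alfredii roots. c33063_g1 stood at 11.4 and 27.2 CPM in the untreated and Cd-treated Sedum alfredii roots and at 3.97 and 2.81 CPM in its shoots, whereas the Sedum plumbizincicola means were 2.07 ± 1.63 CPM for roots and 103 ± 25.7 CPM for shoots (SD, n = 4 each). The log2 difference of the ratios was 7.77 (SE 0.60, adjusted p = 9.15e-07). c36603_g3 stood at 21.9 and 8.08 CPM in Sedum alfredii roots, 5.05 and 4.81 CPM in its shoots, while Sedum plumbizincicola had 1.55 ± 1.13 CPM in its roots and 115 ± 55.0 CPM in its shoots (SD, n = 4 each). Its log2 difference was 7.56 (SE 0.61, adjusted p = 1.17e-06). Both were thus root-higher in the non-hyperaccumulator and shoot-higher in the hyperaccumulator, without overlap between the libraries of an organ and those of the other within a species. The size of the difference moved with single libraries: for c33063_g1 it was 8.73 and 6.91 without the untreated and the Cd-treated Sedum alfredii root and 8.65 without the untreated B root of Sedum plumbizincicola. For c36603_g3 it was 6.55 and 8.37 without these Sedum alfredii roots, 8.18 without the untreated Sedum alfredii shoot and 8.41 without the Cd-treated B root of Sedum plumbizincicola.

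In the reverse direction stood c26472_g1 and c45790_g1. c26472_g1 held 30.7 and 49.3 CPM in the Sedum alfredii shoots and 1.99 and 1.70 CPM in its roots, against 12.4 ± 5.11 CPM (SD, n = 4) in the roots and 2.27 ± 0.703 CPM (SD, n = 4) in the shoots of Sedum plumbizincicola (log2 difference -6.82, SE 0.51, adjusted p = 2.29e-07). c45790_g1, of the same component as the shoot-restricted c45790_g3, reached 1822 CPM (untreated) and 10434 CPM (Cd-treated) in Sedum alfredii shoots, with 71.3 and 95.7 CPM in the roots. In Sedum plumbizincicola it stood at 44.3 ± 9.58 CPM in roots and 26.5 ± 7.56 CPM in shoots (SD, n = 4 each; log2 difference -6.62, SE 0.50, adjusted p = 3.15e-07). Without the Cd-treated root of Sedum alfredii the difference of c26472_g1 was -6.19, and that of c45790_g1 was -7.34 and -5.49 without the untreated and the Cd-treated shoot. On log2(TPM + 1) limma gave -5.47 and -5.67.

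With 1 library per organ and dose, the dependence of the organ difference on cadmium has no test, and the root-to-shoot ratios at 0 and 10 µM CdCl2 are described side by side. Over the 24978 transcripts that reach 10 reads in some library, the log2 ratios of the doses had a Pearson correlation of 0.905 and a Spearman correlation of 0.875 over transcripts. At least 4-fold root-higher were 4279 transcripts without Cd and 4184 with it, 2981 of them at both doses. At least 4-fold shoot-higher were 2618 and 2396, with 2005 at both.

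The ratios lay far apart for a small part of the transcripts. The root-to-shoot ratio was 4-fold or more higher with Cd for 445 transcripts (1.78%) and 4-fold or more lower for 587 (2.35%). Of these 1032, 584 moved more in shoots and 448 more in roots between the doses. In shoots 227 of them stood 4-fold or more above the untreated library in the Cd-treated one and 106 as far below it. In roots these counts were 107 and 190. They lie within a list chosen by the ratio, in which lower ratios (587) outnumber higher ones (445). The same counts over all measured transcripts are not given here, so they lack a background. The ratio pointed to opposite organs, at 2-fold or more either way, for 44 transcripts that were root-higher without Cd and for 35 that were shoot-higher without it. Among the 11561 transcripts called for organ, 252 had ratios 4-fold apart, beside 1032 of all 24978 measured. The organ test takes a difference of the ratios between the doses as spread. Choosing called transcripts therefore favours a low count.

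The clearest examples went both ways. c27749_g1 had 5 and 1 reads in the untreated root and shoot and 17 and 3238 in the Cd-treated ones, and c31686_g1 had 492 and 0 reads untreated and 1904 and 2674 with Cd. In both, the Cd-treated shoot stands far above the untreated shoot, so that c31686_g1 was seen in roots alone without Cd and more in shoots with it. c22624_g2 had 1 root and 2 shoot reads untreated and 115 and 0 with Cd, and c37195_g2 had 12 and 18 untreated and 581 and 10 with Cd. Here the Cd-treated root was the library that stood apart.

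For restricted transcripts the dose ratio was read in their own organ. In roots the median log2 ratio of the Cd-treated to the untreated library was 0.04 for the root-restricted and 0.02 for all tested transcripts, and 101 of the 1090 were 2-fold or more up with Cd while 115 were as far down. In shoots it was -0.41 for the shoot-restricted transcripts, against 0.00 for all tested ones and -0.14 for all shoot-higher ones. Of the 103, 24 were 2-fold or more down and 9 as far up in the Cd-treated shoot. These ratios each compare a single pair of libraries and have no replicate check. The share of all tested transcripts that moved 2-fold is not given here, so the counts of restricted ones lack a background.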

How the data were processed

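The authors deposited, per the file headers, for each library and each of 66584 transcripts an expected count estimated by RSEM, beside TPM, FPKM and a length. FastQC, Bowtie and RSEM are named in the submitters' processing notes, without versions; the assembly, trimming and genome build are not given in the sources used here. The deposited expected counts were whole (no tolerance) in 98.7% to 99.4% of values above 0 per library and were rounded for the tests. The deposited TPM served for levels across transcripts and for alternative tests; deposited FPKM entered no test. Total counts are given with the results; 1 library sequenced by 454 was not analysed here. Both species were counted on 1 transcript set, and how well each aligns to it is not known here.

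The main test was the robust quasi-likelihood F-test of edgeR 4.0.16 (R 4.3.3, TMM factors, filterByExpr, two-sided, Benjamini-Hochberg adjustment over all transcripts tested, threshold 0.05), with terms for organ and dose in the 4 Sedum alfredii libraries. The SE is the log2 fold change over the root of the F statistic. The 8 Sedum plumbizincicola libraries were fitted by organ and dose, and all 12 by species, organ and dose within organ. Printed adjusted p-values are edgeR's unless another tool is named. DESeq2 1.42.0 and limma 3.58.1 gave alternatives. Printed CPM use TMM factors over the 4 Sedum alfredii libraries, or over all 12 where species are compared. Ratios per dose used a prior count of 2. In the Sedum alfredii fit the p-values rest on how the organ difference varied between the doses and on spread shared over transcripts. That fit held no replicates of the same treatment. In the Sedum plumbizincicola fit they rest on the spread between replicates A and B. In the fit of all 12 libraries, differences of the dose response between the species enter as well. The tests were checked on simulated counts.

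Named transcripts were the 2 restricted ones with the most CPM per organ; the 2 highest and 2 lowest fold changes among calls with at least 10 reads in every Sedum alfredii library; the 2 highest and 2 lowest species differences with at least 10 reads per species and organ; the 2 largest dose differences each way with at least 100 reads in a library; and the 2 components with the widest opposite calls. The libraries and lists were chosen with earlier results of these data known.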

Additional observations from a re-analysis of the deposited data

Results flagged for a closer look

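The organ bias of 4 named transcripts differed between the species by the direct test of that difference (edgeR, adjusted p given with the results). The log2 difference of the root-to-shoot ratios, Sedum alfredii over Sedum plumbizincicola, was 7.77 for c33063_g1 and 7.56 for c36603_g3, which were higher in the roots of the former species and in the shoots of the latter. It was -6.82 for c26472_g1 and -6.62 for c45790_g1, which were higher in Sedum alfredii shoots and in Sedum plumbizincicola roots. These 4 kept their direction and call under each of the 17 or 18 alternatives in which they could be tested.

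For another 4 transcripts of Sedum alfredii the root-to-shoot ratio had opposite signs at the 2 doses. This difference was not tested, since each dose has 1 library per organ, and the log2 values depend on the prior count of 2. The ratio with Cd minus the ratio without was 6.08 for c22624_g2 (from -0.62 to 5.46) and 5.68 for c37195_g2 (from -0.93 to 4.75). It was -9.28 for c27749_g1 (from 0.99 to -8.29) and -9.18 for c31686_g1 (from 7.76 to -1.42).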

How the results depend on the processing

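Calls between the organs moved by over 1.5 times under these settings. With at least 10 reads in every library 7320 were called, 3726 of them root-higher. Calls of at least 4-fold numbered 5833 (3494 root-higher, 2339 shoot-higher). limma gave 11933 and 2571 on log2(TPM + 1) and 11416 and 2460 on log2(TPM + 0.1). Leaving out a library gave 7652 to 11516 calls (4348 to 6124 root-higher, 3304 to 5392 shoot-higher), with the dose term dropped. Other size factors, no filter, no dose term, a fit of all 12 libraries and DESeq2 (9399) stayed within 1.5 times. The counts of restricted transcripts were 184 and 39 from 50 reads, 1920 and 271 with at most 3 reads in the other organ, and 190 for shoots with at most 1 read per library. Without a library they were 1417 to 1711 for roots and 123 to 178 for shoots. The species difference had 8641 calls by limma on log2(TPM + 1), 6741 of them above 0. Without a library it had 2896 to 5071 (1525 to 2886 above 0, 1123 to 2439 below). Dose-dependent ratios numbered 158 and 271 from 50 reads, and 2746 and 2468 at 2-fold. The replicate letters of Sedum plumbizincicola showed correlations of deviations of 0.088 to 0.357 and are not stated to mark shared plants; with a replicate block its organ calls were 11860 and the species differences 5886. Among alternative values of the named organ calls 140 kept direction and call, 9 kept direction alone and 0 reversed. Depth limits what 0 reads show to 3 counts.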
